A study of Mus musculus with 12 samples.

Results

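Six4, Six5, Eya1, Eya2, Eya3, Eya4 and Dach1 are 7 genes of the sine oculis homeobox, Eya and Dach families among the 35976 genes counted in sorted mouse bone marrow cells. They were selected on counts of these same 12 libraries already known, so their levels and fold changes are given as a description, with no test. All 7 passed the filter on low counts, which kept 15334 genes. RNA came from CD45.2-positive cells that had been isolated by FACS from bone marrow of C57BL/6 mice. The libraries form 4 groups of 3. One group carries BRD9-NUTM1 (BN1), one MLL-AF9 (MA9) and one MLL-ENL (ME), and the fourth is normal marrow without a fusion (WT). Every group, WT included, has the CD45.2 form of the leukocyte surface protein CD45, encoded by Ptprc. The labels do not give the way a fusion was introduced, the age or the sex of the mice, or whether replicate libraries were made from different mice. Any p-value therefore measures only the spread between these libraries, which may be technical. Library totals ran from 21942608 to 25732049 counts in BN1, 18953495 to 22112345 in MA9, 18292636 to 21693465 in ME and 19170183 to 21432949 in WT. ME replicate 3 stands apart from the other ME libraries, with a mean chi-square per gene of 32.3 and 35.2 against them, where all other replicate pairs lay at 7.51 or less.

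Six4 and Six5 are homeodomain transcription factors of the sine oculis family, whose members bind DNA and recruit Eya proteins, which do not bind DNA themselves. Eya proteins act as coactivators and carry a tyrosine phosphatase domain, and Dach proteins, relatives of the corepressors Ski and SnoN, join sine oculis factors as corepressors. The network was worked out in the fly eye and is known in the mouse from muscle, kidney and ear. In mouse bone marrow Eya1 is known as a target of MLL fusions. BRD9-NUTM1 joins a bromodomain protein of a SWI/SNF-type remodelling complex to a testis protein, and the MLL fusions join the amino-terminal end of a histone methyltransferase to the elongation factors AF9 and ENL.

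All 7 genes are protein-coding and lie at separate loci of the mm10 (GRCm38) assembly, by the RefSeq annotation. Six4 (Entrez 20474) occupies chromosome 12 from 73099609 to 73114031 on the minus strand. Six5 (Entrez 20475) occupies chromosome 7 from 19094544 to 19098549 on the plus strand. The Eya genes and Dach1 are much longer loci. Eya1 (Entrez 14048) spans 142.1 kb of chromosome 1 from 14168953 to 14311035 on the minus strand. Eya2 (Entrez 14049) spans 176.7 kb of chromosome 2 from 165595028 to 165771727 on the plus strand. Eya3 (Entrez 14050) spans 85.7 kb of chromosome 4 from 132639025 to 132724765 on the plus strand. Eya3 is thus the shortest of the Eya loci. Eya4 (Entrez 14051) spans 247.9 kb of chromosome 10 from 23102962 to 23350838 on the minus strand. Dach1 (Entrez 13134) is the longest, with 382.9 kb of chromosome 14 from 97786846 to 98169765 on the minus strand. In the GENCODE M21 annotation, small annotated RNAs or predicted genes overlap Eya1, Eya2, Eya4 and Dach1, none of them present in the count table. No gene overlaps Six4, Six5 or Eya3 there.

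The promoters held more CpG dinucleotides than the median promoter. The set of RefSeq promoters used (GRCm38.p6) held 7 starts for 5 of the 7 genes, the exceptions being Eya1 and Eya2. In the 250 bases before a start these held 13 to 35 of them, against a median of 6 (quartiles 2 and 16) over 32851 promoters of the same length. Their GC content ran from 54.8% to 74.0%, against a median of 52.4%. Both strands were searched for the letters TCAGGTT (the core of MEF3, the motif that Six4 and its relatives bind in muscle genes), TGATTNAT (a Hox-Pbx motif) and TGACAG (a Meis motif), which do not overlap in the matches found. Of all promoters, 3.49% held the MEF3 core, 2.82% the Hox-Pbx letters and 15.9% the Meis letters. The MEF3 core was found once, 97 to 91 bases before 1 of the Six4 starts (73113245) on the opposite strand, within the annotated gene because its other start (73113425) lies upstream. The Meis letters were found at Six5, 105 to 100 bases before the start, and at Dach1, 9 to 4 bases before the start on the opposite strand. No window held the Hox-Pbx letters, and those of Eya3 and Eya4 held no match. A match of letters is a description and not a binding site. The stretches with a match are shown 5′ to 3′ on the strand of the gene, because they hold the only matches among the 7 starts, with the matched letters in capitals. They lie at chr12:73113324-73113353 (minus strand), chr7:19094424-19094543 (plus strand) and chr14:98169766-98169885 (minus strand).
Six4: ggcctgggggaAACCTGAtcggccagatcc
Six5: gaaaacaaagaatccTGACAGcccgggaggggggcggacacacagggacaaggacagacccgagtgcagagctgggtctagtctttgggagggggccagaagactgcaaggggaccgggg
Dach1: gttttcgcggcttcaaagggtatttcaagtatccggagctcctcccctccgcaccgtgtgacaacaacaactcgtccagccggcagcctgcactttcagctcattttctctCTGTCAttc

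Levels are CPM, read counts divided by the TMM-scaled library size and brought to a common scale, listed by replicate and summarised as mean ± SD (n = 3 libraries). Log2 fold changes come from edgeR and carry an approximate SE. Where a group had no counts, the fold is a lower bound that sets the group's summed count to a floor of 3. Where it had 1 to 3 counts, the ratio is given with its exact 95% counting interval. Bounds and intervals cover counting error only.

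Six4, a factor that binds MEF3 sites of muscle genes, had 7.12, 6.84 and 6.89 CPM in BN1. It had 58.7, 62.8 and 58.4 CPM in MA9. In ME it had 0.0484, 0 and 0.111 CPM (1, 0 and 2 counts), and no WT library held a count of Six4. MA9 was thus highest and BN1 next, without overlap, while ME and WT lay at or near the floor. The BN1 mean, 6.95 ± 0.148 CPM, was at least 129.7-fold higher than WT, and the MA9 mean, 60.0 ± 2.48 CPM, at least 1121.7-fold higher. BN1 was lower than MA9 by a log2 fold change of -3.11 ± 0.10. Six4 in BN1 was 140.7-fold higher than in ME (counting interval 47.9 to 684.6), and in MA9 it was 1216.6-fold higher than in ME (416.0 to 5902.1). No fold is given for ME against WT, where 3 counts stand against 0. Expressed per kilobase of exon, Six4 stood at 0.64 ± 0.0136 CPM per kb in BN1 and 5.52 ± 0.228 CPM per kb in MA9.

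Markers of stromal and endothelial cells, which in the mouse can express Six4 and Eya1, were examined beside Six4. The summed level of the 9 markers ran from 90.0 to 93.8 CPM in BN1, 158.0 to 165.4 CPM in MA9, 47.3 to 48.7 CPM in ME and 92.6 to 95.4 CPM in WT. By edgeR at an adjusted p under 0.05, 3 of 9 were higher and 3 lower in MA9 against WT. In BN1 against WT, 1 was higher and 5 lower. Of all tested genes, 80.1% were called in MA9 against WT, 39.3% higher and 40.8% lower. The share in BN1 against WT was 79.2%, with 38.4% higher and 40.8% lower. Pecam1, which white cells also express, made up most of the sum, at 141.5 CPM in MA9 against 75.1 CPM in WT. Among the mesenchymal markers, Pdgfrb averaged 15.1 CPM in MA9 against 3.06 CPM in WT and Cxcl12 3.2 CPM in MA9 against 0.836 CPM in WT. In BN1, where Six4 was also higher than in WT, Pdgfrb averaged 0.107 CPM and Cxcl12 0.315 CPM, both below WT. The endothelial markers Cdh5 and Kdr lay lower in MA9, at 0.117 and 0.0162 CPM, against 8.74 and 1.14 CPM in WT, and Col1a1 averaged 0.469 CPM in MA9 against 3.63 CPM in WT. The part of such cells in the Six4 and Eya1 levels was not tested.

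**Figure D1:**
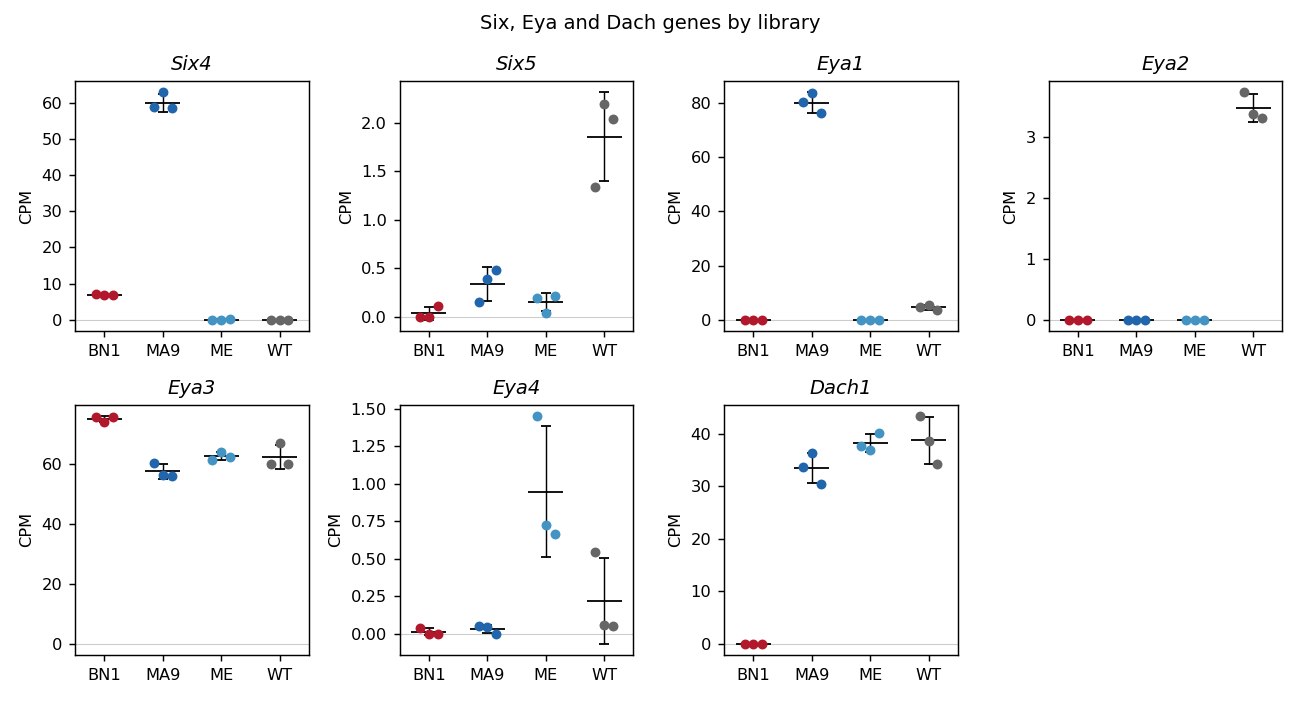
CPM of each gene in every library, with the horizontal line at the group mean and error bars of 1 SD (n = 3), for BN1, MA9, ME and WT; each panel has its own linear axis. MA9 libraries are highest for Six4 and Eya1, BN1 libraries lie at 0 for Eya1 and Dach1, and Eya2 counts appear in the WT libraries alone.

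Six5, a factor best known from its place beside the myotonic dystrophy kinase gene, was a low transcript. Its counts were 0, 0 and 3 in BN1, 3, 9 and 10 in MA9, 4, 1 and 4 in ME and 27, 39 and 37 in WT. As levels these were 0, 0 and 0.115 CPM in BN1, 0.151, 0.388 and 0.486 CPM in MA9, 0.193, 0.0453 and 0.222 CPM in ME and 1.34, 2.19 and 2.04 CPM in WT. WT lay above every leukemia library. ME overlapped both MA9 and BN1, and BN1 lay below MA9 without overlap. Six5 was 44.6-fold lower in BN1 than in WT (counting interval 14.8 to 219.6). The log2 fold change against WT was -2.35 ± 0.44 in MA9 and -3.44 ± 0.51 in ME (-3.73 without ME replicate 3). BN1 was 8.37-fold lower than MA9 (2.51 to 43.7), whereas the interval of BN1 against ME, 3.59-fold lower, spanned equality (0.896 to 20.6).

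WT marrow is a mixture of lineages, and in such bulk samples fewer cells of a type and less RNA per cell cannot be told apart. The summed level of 8 red cell markers ran from 12.8 to 13.9 CPM in BN1, 17.6 to 19.8 CPM in MA9, 2.71 to 3.11 CPM in ME and 20446.9 to 25211.3 CPM in WT. That of 6 B cell markers ran from 0.54 to 0.881 CPM in BN1, 17.7 to 18.9 CPM in MA9, 0.952 to 1.4 CPM in ME and 884.3 to 1011.2 CPM in WT. That of 7 T and NK cell markers ran from 0.27 to 0.766 CPM in BN1, 1.34 to 1.7 CPM in MA9, 0.363 to 1.55 CPM in ME and 199.2 to 208.8 CPM in WT. All members of these 3 lists were lower in each leukemia by edgeR at an adjusted p under 0.05. The share of all tested genes called lower was 40.8% in BN1, 40.8% in MA9 and 40.2% in ME. Markers without counts included Ebf1, Ms4a1 and Ncr1 in MA9, and Ms4a1, Cd3g, Slc4a1 and Gata1 in ME. Granulocyte and monocyte markers, 8 in number, summed to 22147.2 to 22854.7 CPM in BN1, 11533.8 to 12076.5 CPM in MA9, 17371.8 to 18047.5 CPM in ME and 4247.8 to 4441.8 CPM in WT. Genes of the neutrophil granules (Mpo, Elane, Prtn3 and Ctsg) made up most of the leukemia sums, whereas Itgam averaged 350.0 CPM in BN1, 409.1 CPM in MA9, 489.4 CPM in ME and 1376.5 CPM in WT, and Csf3r was lower than in WT as well. Of the 8, edgeR called 6 higher and 2 lower in BN1, 4 higher and 3 lower in MA9 and 4 higher and 4 lower in ME against WT. Called in either direction were 79.2%, 80.1% and 79.2% of all tested genes in BN1, MA9 and ME. The sorted marker itself, Ptprc, lay at 473.6 to 512.1 CPM in BN1, 359.8 to 414.8 CPM in MA9, 316.8 to 334.0 CPM in ME and 942.1 to 1087.1 CPM in WT. Six5, Eya2, and Eya1 in BN1 and ME, were lower than in WT in the same direction as the lineage lists, and the part of these cells in their WT levels was not tested.

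Eya1, the coactivator reported as an MLL fusion target, had no counts in the 3 BN1 libraries. MA9 had 80.3, 83.8 and 76.2 CPM (1599, 1941 and 1569 counts). No count of Eya1 was found in the 3 ME libraries, and WT had 4.73, 5.52 and 3.75 CPM (95, 98 and 68 counts). MA9 was highest and WT next, without overlap, and the zeros of BN1 and ME allow at most 0.0413 and 0.0494 CPM at the floor. Eya1 was higher in MA9 than in WT by a log2 fold change of 4.10 ± 0.11. It was at least 112.9-fold lower in BN1 and at least 94.4-fold lower in ME than in WT. The 2 MLL fusions thus lay on opposite sides of WT, with MA9 at least 1624.6-fold higher than ME. BN1 was at least 1943.6-fold lower than MA9.

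Eya2, a coactivator active in muscle precursors of the mouse, had no counts in any of the 9 leukemia libraries. WT had 3.73, 3.38 and 3.31 CPM (75, 60 and 60 counts). The groups did not overlap, and Eya2 was at least 84.3-fold lower in BN1, at least 73.9-fold lower in MA9 and at least 70.5-fold lower in ME than in WT.

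Eya3, the family member found in most adult tissues, had 75.7, 74.0 and 75.6 CPM in BN1. It had 60.5, 56.3 and 56.1 CPM in MA9 and 61.5, 64.0 and 62.4 CPM in ME. WT had 60.0, 67.0 and 60.1 CPM. BN1 was highest without overlap with any other group. ME and WT overlapped, as did MA9 and WT, while MA9 lay below ME without overlap. The log2 fold changes were small, at 0.27 ± 0.06 in BN1, -0.11 ± 0.06 in MA9 and 0.01 ± 0.06 in ME against WT. BN1 stood 0.38 ± 0.06 above MA9 and 0.26 ± 0.06 above ME on the log2 scale, and MA9 against ME was -0.12 ± 0.06. With no scaling beyond library totals, which moves the median of all genes by 0.12, 0.17 and 0.11 (log2) for BN1, MA9 and ME against WT, the Eya3 values against WT were 0.39, 0.06 and 0.12, so that the sign in MA9 turned.

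Eya4, the coactivator whose human counterpart is a deafness gene, was near the detection floor except in ME. BN1 had 1, 0 and 0 counts and MA9 1, 1 and 0. ME libraries had 1.45, 0.726 and 0.667 CPM (30, 16 and 12 counts). WT had 11, 1 and 1 counts, or 0.548, 0.0563 and 0.0551 CPM, so that 1 library carried most of the WT signal. ME was highest and overlapped no other group. Eya4 in ME was higher than in WT by a log2 fold change of 1.94 ± 0.57, which was 3.62 without WT replicate 1 and 2.13 without ME replicate 3. Eya4 was 69.4-fold lower in BN1 than in ME (counting interval 12 to 2787.3) and 30.4-fold lower in MA9 than in ME (8.04 to 257.0). Against WT it was 16.9-fold lower in BN1 (2.53 to 716.9) and 7.39-fold lower in MA9 (1.67 to 67.5). Without WT replicate 1, WT held 2 counts, against 1 in BN1 and 2 in MA9, and no fold is given. Without BN1 replicate 1, which held the BN1 count, Eya4 in BN1 was at least 3.74-fold lower than in WT and at least 15.4-fold lower than in ME.

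Per kilobase of exon, Eya3 supplied nearly all Eya transcripts in BN1 and ME, and shared that place with Eya1 in MA9. The sum over the 4 paralogs was 13.3 ± 0.164 CPM per kb in BN1, 20.5 ± 0.683 in MA9, 11.2 ± 0.193 in ME and 12.8 ± 0.775 in WT. Eya3 itself stood at 13.3 ± 0.162 CPM per kb in BN1, 10.2 ± 0.438 in MA9, 11.1 ± 0.225 in ME and 11 ± 0.708 in WT. It made up nearly the whole sum in BN1, 49.9% ± 1.5 of it in MA9, 99.1% ± 0.427 in ME and 86.0% ± 1.19 in WT. Eya1 made up 50.1% ± 1.5 of the sum in MA9 and 4.63% ± 0.638 in WT. Outside MA9 the other paralogs were minor. Eya2 made up 9.16% ± 0.867 in WT, at 1.17 ± 0.0774 CPM per kb. Eya4 made up 0.902% ± 0.427 in ME and 0.185% ± 0.241 in WT. The larger Eya sum of MA9 came with Eya1, since Eya3 alone was not higher there than in the other groups.

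**Figure D2:**
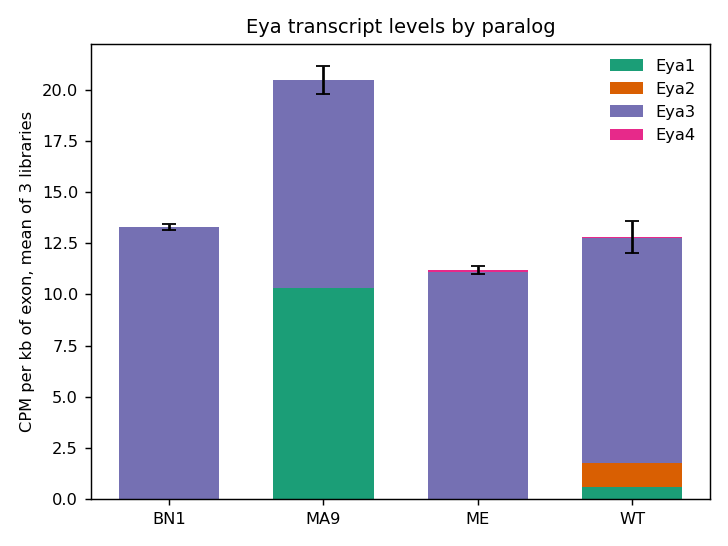
Mean level of the 4 Eya paralogs in CPM per kilobase of exon, stacked for BN1, MA9, ME and WT, with error bars of 1 SD of the sum (n = 3 libraries). Eya3 fills the BN1 and ME bars, Eya1 takes 50.1% of the MA9 bar, and Eya1 with Eya2 takes the lower part of the WT bar.

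Dach1, a corepressor of the Ski-related family that opposes the Eya coactivators, had no counts in the 3 BN1 libraries. MA9 had 33.6, 36.4 and 30.5 CPM, ME had 37.7, 37.0 and 40.2 CPM, and WT had 43.4, 38.6 and 34.3 CPM. BN1 lay apart from all other groups. WT overlapped both MLL fusion groups, and MA9 lay below ME without overlap. Dach1 was at least 942.5-fold lower in BN1 than in WT, at least 813.7-fold lower than in MA9 and at least 924.8-fold lower than in ME. The log2 fold change against WT was -0.21 ± 0.08 in MA9 and -0.02 ± 0.08 in ME (-0.05 without ME replicate 3), and MA9 against ME was -0.19 ± 0.08. With no scaling beyond library totals, the MA9 value against WT was -0.04. Markers of stem and early progenitor cells, 9 in number, summed to 129.0 to 131.9 CPM in BN1, 132.1 to 140.6 CPM in MA9, 153.2 to 171.9 CPM in ME and 156.6 to 161.9 CPM in WT. Of these, Mecom had 0 counts in BN1, 0 in MA9, 1 in ME and 31 in WT. By edgeR at an adjusted p under 0.05, 1 of the 9 was higher and 6 lower in BN1 against WT, 2 higher and 5 lower in MA9 and 1 higher and 6 lower in ME. Over all tested genes, 79.2%, 80.1% and 79.2% were called in BN1, MA9 and ME against WT. The receptor gene Kit made up most of the sum in the leukemias, at 126.5 CPM in BN1, 76.5 CPM in MA9, 153.9 CPM in ME and 52.2 CPM in WT. Cd34 stood at 0.602 CPM in BN1, 46.1 CPM in MA9, 3.42 CPM in ME and 28.5 CPM in WT, and Gata2 at 0.173 CPM in BN1, 11.9 CPM in MA9, 0.505 CPM in ME and 43.4 CPM in WT. Cd34 and Gata2 were thus low in ME too, where Dach1 overlapped WT, and the part of these cells in the Dach1 level was not tested. Per kilobase of exon Dach1 stood at 4.58 ± 0.404 CPM per kb in MA9, 5.23 ± 0.234 in ME and 5.3 ± 0.625 in WT. In MA9, Six4, Eya1 and Dach1 were thus all present, at 5.52, 10.3 and 4.58 CPM per kb of exon. ME held Dach1 and Eya3 with Six4 near the floor, and BN1 held Six4 and Eya3 without Dach1.

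Counted against the threshold used for all genes (edgeR quasi-likelihood test, Benjamini-Hochberg adjusted p under 0.05), the 7 genes can be set beside the whole table, from which nothing is read because these contrasts were used in choosing them. In BN1 against WT, 2 were past it in the higher and 5 in the lower direction, where 79.2% of all tested genes were called, 38.4% higher and 40.8% lower. In MA9 against WT, 2 were higher and 4 lower, the exception being Eya3, where 80.1% of genes were called, 39.3% higher and 40.8% lower. Among the 4, Dach1 was called in 18 of 23 alternative fits, and Eya4 in 18 of the 21 that kept it. In ME against WT, 1 was higher and 3 lower, where 79.2% of genes were called, 39% higher and 40.2% lower. Six5 and Eya2 were among the lower genes in each of these 3 comparisons, which share the same WT libraries. Both passed the filter on low counts through WT alone, so the direction of these calls was largely set in advance. Eya4 passed it through ME. In BN1 against MA9, 1 was higher and 4 lower, where 67.7% of genes were called, 32.8% higher and 34.9% lower. In BN1 against ME, 2 were higher and 2 lower, where 64.7% of genes were called, 31.8% higher and 33% lower. In MA9 against ME, 2 were higher and 1 lower, where 40.6% of genes were called, 20.2% higher and 20.4% lower (3888 higher and 2509 lower with no scaling beyond library totals, against 3095 and 3130).

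The genomic neighbours of these genes did not all share their pattern. Mnat1, a subunit of the CDK-activating kinase 10.3 kb from Six4, rose in each leukemia, at 24.5 ± 1.14 CPM in BN1, 37.6 ± 0.299 in MA9, 24.3 ± 2.07 in ME and 10.3 ± 0.841 in WT (edgeR adjusted p = 3.2e-13, 2.2e-17 and 5.4e-13). It was present in ME, where Six4 was near the floor. Dmpk, the myotonic dystrophy protein kinase gene 0.773 kb from Six5, was lower too, with 1 count in BN1, 1 in MA9, 2 in ME and 421 in WT. Dmpk was 546.3-fold lower in BN1 (counting interval 97.5 to 21628.1), 478.7-fold lower in MA9 (85.4 to 18951.2) and 228.3-fold lower in ME (62.8 to 1891.5) than in WT. Fbxo46, 21.3 kb on the other side of Six5, fell less, by log2 changes of -0.52, -0.54 and -0.61 in BN1, MA9 and ME (edgeR adjusted p = 9e-06, 6.1e-06 and 1.2e-06). Zmynd8, 12.4 kb from Eya2, stood at 117.6 CPM in BN1, 144.1 CPM in MA9, 118.6 CPM in ME and 121.9 CPM in WT, in contrast to the absence of Eya2 counts from the leukemias. On the other side of Eya2, Slc2a10 at 75.1 kb had no counts in BN1, 1 in MA9, none in ME and 11 in WT. Xkr8, a phospholipid scramblase gene 0.132 kb from Eya3, rose in each leukemia by 0.80, 0.65 and 0.98 on the log2 scale in BN1, MA9 and ME (edgeR adjusted p = 1.3e-07, 4.5e-06 and 3.8e-09). Ptafr, the platelet-activating factor receptor gene 56.3 kb from Eya3, fell by -1.55, -1.88 and -1.72 on the same scale (edgeR adjusted p = 9e-19, 2.6e-20 and 1.7e-19). Tcf21, 282.8 kb from Eya4, had 22 counts in ME and none in the other groups, at least 6.76-fold higher than WT. Rps12, a ribosomal protein gene 434.4 kb on the other side of Eya4, rose by 0.14, 0.71 and 0.70 on the log2 scale in BN1, MA9 and ME (edgeR adjusted p = 0.0058, 1.3e-14 and 2e-14). Eya1 and Dach1 lie in gene-poor stretches. Msc, 443.1 kb from Eya1, had 1 count over all libraries. Rpl36a-ps1, 824.1 kb from Dach1, was absent from the counted genes. Klhl1, 1267.8 kb away on the other side of Dach1, had no counts in any library.

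Genes of the most similar pattern were found by Pearson correlation of log2 CPM over the 12 libraries, which share 4 groups, so the coefficient largely measures the match of group means. Glyat, a glycine acyltransferase gene, was closest to Six4 (r = 0.99), at 0.606 CPM in BN1 and 3.69 CPM in MA9 with no counts in ME or WT. Itga1, the integrin alpha 1 subunit, was closest to Eya1 (r = 0.998), at 4.92 CPM in BN1, 56.8 CPM in MA9, 5.11 CPM in ME and 22.7 CPM in WT. Spon2, a secreted matrix protein gene, had the zeros of Eya1 in BN1 and ME too (r = 0.988), with 3.31 CPM in MA9 and 1.15 CPM in WT. Dnmt3a, the de novo DNA methyltransferase, was lowest in BN1 as Dach1 was (r = 0.998), at 8.29 ± 0.676 CPM in BN1, 58.2 ± 0.825 in MA9, 56.4 ± 1.27 in ME and 60.8 ± 2.91 in WT. Prkcb, a protein kinase C gene, and Tmem40 were equally close to Dach1 (r = 0.998 each). All 3 kept transcripts in BN1, where Dach1 had none. The genes nearest to Eya2 were Klra9, Duxbl2 and Hrh4 (r = 1.0 each), all without counts in the leukemias, though Klra9 and Duxbl2 have close family copies and their levels are uncertain. Asah2, Fli1 and F11r were nearest to Eya4 (r = 0.935, 0.931 and 0.918), Ubxn6, Adora3 and Mmp28 to Eya3 (r = 0.973, 0.962 and 0.959) and Arhgef39, Ppp1ca and H2-Ke6 to Six5 (r = 0.982, 0.981 and 0.969). Unc80 and Chd1l followed Glyat for Six4 (r = 0.982 and 0.979), and Smim14 followed Itga1 for Eya1 (r = 0.993).

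**Figure D3:**
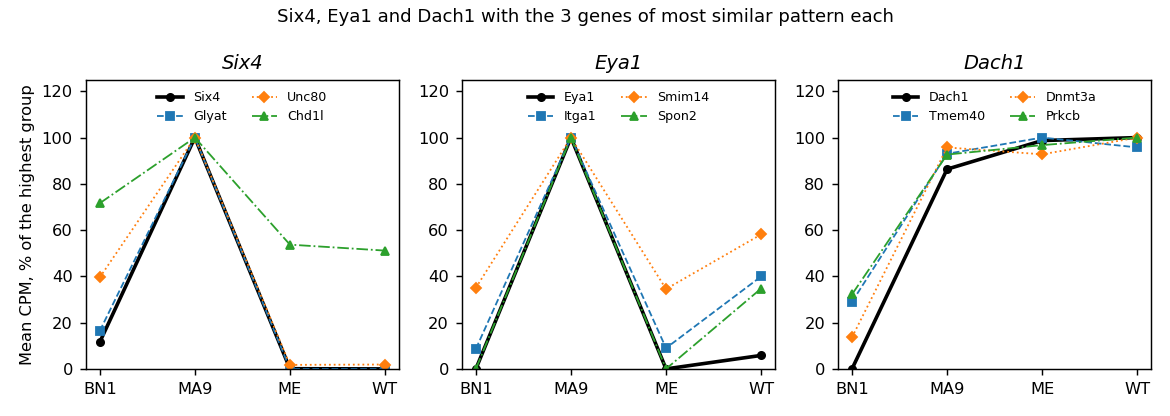
Mean CPM of Six4, Eya1 and Dach1 (black) and of the 3 genes most similar to each, by group (BN1, MA9, ME, WT), as a percentage of that gene's highest group mean. Itga1, Smim14 and Spon2 have larger WT values relative to MA9 than Eya1, and the genes similar to Dach1 stay above 0 in BN1.

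Other family members and Pax partners were examined next, since Pax genes act in 1 network with them in the mouse. Six2 had no counts, Six3 had 2 in MA9 and 6 in WT, Six6 had 1 in BN1 and 1 in MA9, and Dach2 had 5 in BN1 and 6 in WT, so none of these passed the filter. Pax8, the Pax factor of kidney and thyroid, rose in all 3 leukemias, at 10.5 ± 0.54 CPM in BN1, 50.7 ± 3.67 in MA9, 18.0 ± 1.37 in ME and 0.996 ± 0.309 in WT. The log2 fold changes of Pax8 against WT were 3.38 ± 0.16 in BN1 (edgeR adjusted p = 7.1e-17), 5.66 ± 0.14 in MA9 (1.5e-23) and 4.16 ± 0.16 in ME (1.7e-19). Pax8 was lower in BN1 than in MA9 by a log2 fold change of -2.27 ± 0.09 (edgeR adjusted p = 4.9e-18) and than in ME by -0.78 ± 0.10 (1.2e-07), and higher in MA9 than in ME by 1.5 ± 0.09 (8.1e-14). MA9 was thus highest for Pax8 as for Six4 and Eya1, but Pax8 was also present in ME. Pax5, the B cell factor, had 2 counts in BN1, 1 in MA9, none in ME and 158.4 ± 5.88 CPM in WT, beside the B cell marker sums given above. It was 5751.0-fold lower in BN1 than in WT (counting interval 1591.6 to 47495.4), 10078.4-fold lower in MA9 (1808.4 to 398120.9) and at least 3204.8-fold lower in ME.

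The wider pathway was described by lists of 68 genes, of which 47 passed the filter. In BN1 against WT, 19 of the 47 were called higher and 19 lower. In MA9 against WT, 23 were higher and 22 lower, and in ME against WT, 19 were higher and 19 lower. The counts of these lists stand beside the shares given above, 79.2%, 80.1% and 79.2% of all tested genes called in BN1, MA9 and ME against WT. Between leukemias, 20 were higher and 17 lower in BN1 than in MA9, 19 higher and 14 lower in BN1 than in ME, and 15 higher and 13 lower in MA9 than in ME (16 and 9 with no scaling beyond library totals). The shares of all tested genes called in these comparisons were 67.7%, 64.7% and 40.6%. The median log2 fold change of the 47 was -0.04, 0.03 and -0.04 for BN1, MA9 and ME against WT, beside -0.01 over all genes tested in each. It was 0.05, 0.02 and -0.01 for BN1 against MA9, BN1 against ME and MA9 against ME, beside -0.01, -0.01 and 0.0 over all genes. TMM scaling centres the fold changes near 0. With no scaling beyond library totals, 21 pathway genes were higher and 14 lower in BN1, 24 higher and 17 lower in MA9 and 22 higher and 19 lower in ME against WT.

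Cofactors of Six4, Eya and Dach proteins and of their relatives, 18 tested of 20, had 4 genes higher and 8 lower in BN1, 7 higher and 10 lower in MA9 and 6 higher and 8 lower in ME against WT. The shares over all tested genes were 79.2%, 80.1% and 79.2% called. Tle6, of the Groucho-related corepressor family, rose in each, at 11.5 ± 0.774 CPM in BN1, 9.2 ± 0.645 in MA9, 18.0 ± 0.975 in ME and 1.92 ± 0.494 in WT. Its log2 fold changes were 2.56 ± 0.15 in BN1 (edgeR adjusted p = 7.6e-15), 2.24 ± 0.16 in MA9 (3.1e-13) and 3.21 ± 0.15 in ME (2.4e-17). Tle1, of the same family, separated the MLL fusions from BN1, with 12.1 ± 1.39 CPM in BN1, 1.25 ± 0.0737 in MA9, 1.55 ± 0.508 in ME and 15.3 ± 1.21 in WT. Tle1 fell by a log2 fold change of -3.58 ± 0.17 in MA9 (edgeR adjusted p = 7.1e-17) and -3.27 ± 0.17 in ME (3.2e-16), and was higher in BN1 than in MA9 by 3.24 ± 0.17 (1.7e-15). Skil, which encodes SnoN, fell in all 3, by -0.76 ± 0.07 in BN1, -1.70 ± 0.08 in MA9 and -1.36 ± 0.08 in ME (edgeR adjusted p = 3.8e-10, 4e-17 and 4.4e-15). Ski, its relative, rose in MA9 by 0.53 ± 0.06 and in ME by 0.34 ± 0.06 (edgeR adjusted p = 5.1e-09 and 9.2e-06). It was lower in BN1 than in MA9 by -0.64 ± 0.06 (edgeR adjusted p = 1.8e-10). The histone deacetylase gene Hdac3 rose by 0.46 ± 0.05 in BN1, 0.18 ± 0.06 in MA9 and 0.19 ± 0.06 in ME (edgeR adjusted p = 1.7e-08, 0.0039 and 0.0029). The coactivator gene Crebbp fell by -0.54 ± 0.07 in BN1, -0.83 ± 0.07 in MA9 and -0.74 ± 0.07 in ME (edgeR adjusted p = 2.8e-08, 8.3e-12 and 8e-11). Smad4, a transducer of TGF-beta signals that binds Ski proteins, fell by -0.64 ± 0.05 in BN1, -0.92 ± 0.05 in MA9 and -0.54 ± 0.05 in ME (edgeR adjusted p = 8e-12, 4e-15 and 3.1e-10).

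Reported targets of sine oculis and Eya factors, 7 tested of 15, had 3 genes higher and 2 lower in BN1, 4 higher and 3 lower in MA9 and 3 higher and 3 lower in ME against WT. Beside them, 79.2%, 80.1% and 79.2% of all tested genes were called. Myogenin (Myog), a muscle factor with a MEF3 site in its promoter, had no counts in BN1, 186 in MA9 (2.95 ± 0.633 CPM), none in ME and 3 in WT. Myog was 54.5-fold higher in MA9 than in WT (counting interval 18.4 to 266.8) and at least 59.1-fold higher than in ME. It passed the filter on low counts through MA9 alone. The cation-chloride cotransporter gene Slc12a2 stood at 12.8 ± 1.99 CPM in BN1, 0.128 in MA9, 0.113 in ME and 11.4 ± 1.09 in WT. It fell by -6.26 ± 0.27 in MA9 and -6.36 ± 0.28 in ME on the log2 scale (edgeR adjusted p = 4.6e-18 and 5.9e-18). Cyclin D1 (Ccnd1) fell to 11.7 ± 0.452 CPM in BN1, 2.21 ± 0.296 in MA9 and 1.39 ± 0.557 in ME, against 15.4 ± 1.23 in WT. Its log2 fold changes were -0.40 ± 0.13, -2.79 ± 0.16 and -3.41 ± 0.18 in BN1, MA9 and ME (edgeR adjusted p = 0.0072, 4.7e-15 and 3.2e-16). Ezrin (Ezr), a linker of membrane and actin, fell by -0.96 ± 0.05, -1.45 ± 0.05 and -1.35 ± 0.05 in BN1, MA9 and ME (edgeR adjusted p = 1.9e-16, 2e-20 and 1e-19). Myc rose by 0.58 ± 0.06, 1.51 ± 0.06 and 1.67 ± 0.06 in BN1, MA9 and ME (edgeR adjusted p = 2.6e-09, 1.2e-18 and 1.2e-19).

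**Figure D4:**
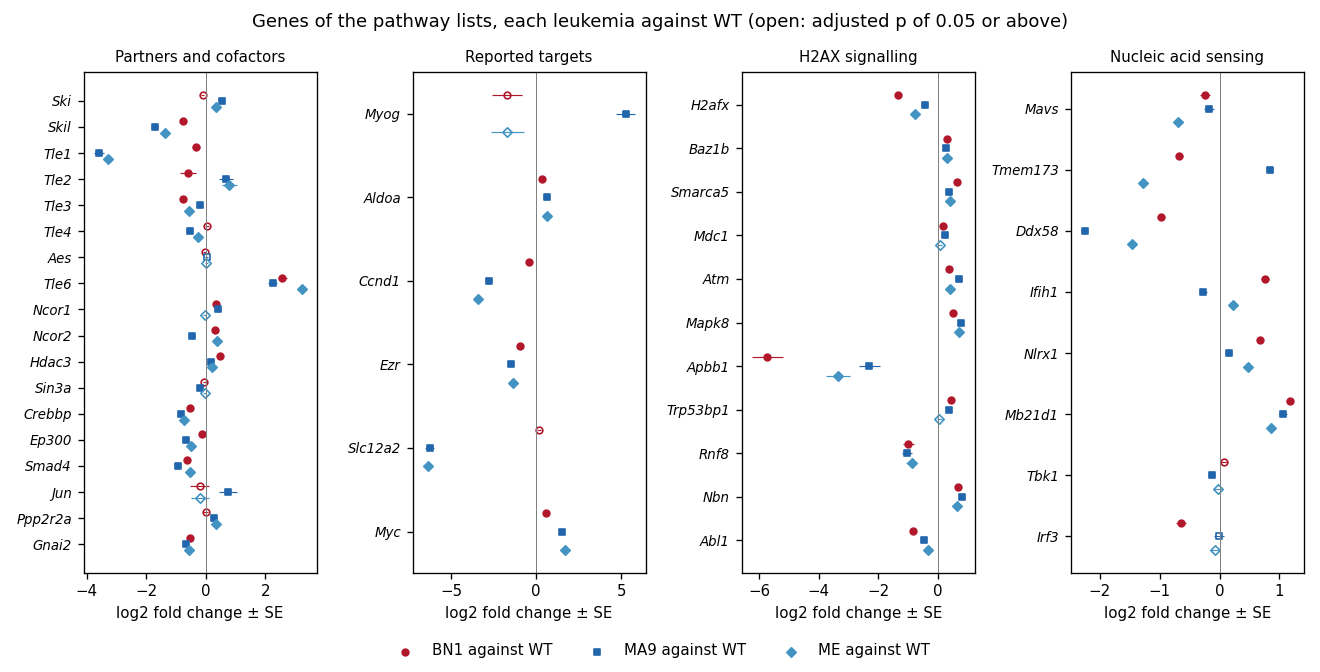
The edgeR log2 fold change ± SE of genes of the 4 pathway lists in BN1, MA9 and ME, each against WT; filled symbols have an adjusted p under 0.05, and the Myog and Apbb1 estimates rest on groups with few or no counts. Tle1 and Slc12a2 lie far below 0 in MA9 and ME and near 0 in BN1, and Tmem173 is above 0 in MA9 and below it in BN1 and ME.

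Genes of H2AX signalling were listed because Eya phosphatases act on the tyrosine mark of histone H2AX, and all 11 were tested. Where 79.2%, 80.1% and 79.2% of all tested genes were called in BN1, MA9 and ME against WT, there were 7 higher and 4 lower in BN1, 7 higher and 4 lower in MA9 and 5 higher and 4 lower in ME against WT. The histone gene itself, H2afx in the files, fell to 125.3 ± 8.99 CPM in BN1, 233.3 ± 21.1 in MA9 and 187.3 ± 1.85 in ME, against 317.0 ± 37.8 in WT. Its log2 fold changes were -1.34 ± 0.08, -0.44 ± 0.08 and -0.76 ± 0.08 (edgeR adjusted p = 3.8e-11, 5.2e-05 and 8.8e-08). Apbb1, which encodes the adaptor Fe65 that binds phosphorylated H2AX, had 3 counts in BN1 and 3.43 ± 0.445 CPM in WT, 82.6-fold lower in BN1 (counting interval 27.8 to 404.1; edgeR adjusted p = 5e-11). Apbb1 also fell in MA9 by -2.30 ± 0.35 and in ME by -3.35 ± 0.40 (edgeR adjusted p = 9.5e-07 and 1.4e-08). Nbn, of the complex that senses DNA breaks, rose by 0.66 ± 0.07, 0.81 ± 0.07 and 0.64 ± 0.08 in BN1, MA9 and ME (edgeR adjusted p = 5.5e-09, 9.2e-11 and 1.1e-08). The ubiquitin ligase gene Rnf8 fell in each, by -0.99 ± 0.18, -1.04 ± 0.18 and -0.88 ± 0.18 (edgeR adjusted p = 1.4e-05, 8.9e-06 and 7.3e-05).

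Nucleic acid sensing genes were listed because Eya4 is known to enhance these responses in mouse cells, and all 8 were tested. There were 3 higher and 4 lower in BN1, 3 higher and 4 lower in MA9 and 3 higher and 3 lower in ME against WT. Here too, 79.2%, 80.1% and 79.2% of all tested genes were called. Tmem173, which encodes STING, went opposite ways in the MLL fusions, at 112.3 ± 0.833 CPM in MA9, 25.9 ± 0.506 in ME and 62.9 ± 2.45 in WT. Its log2 fold change was 0.84 ± 0.05 in MA9 (edgeR adjusted p = 2.5e-14), -1.28 ± 0.06 in ME (2e-17) and 2.11 ± 0.06 in MA9 against ME (8.8e-22). In BN1 it fell by -0.67 ± 0.06 (edgeR adjusted p = 1.1e-11). Ddx58, which encodes the RNA sensor RIG-I, fell in each leukemia, by -0.98 ± 0.06 in BN1, -2.25 ± 0.06 in MA9 and -1.47 ± 0.06 in ME (edgeR adjusted p = 3.2e-15, 1.5e-22 and 9.3e-19). Mb21d1, which encodes the DNA sensor cGAS, rose by 1.17 ± 0.06, 1.06 ± 0.06 and 0.86 ± 0.07 (edgeR adjusted p = 1e-15, 1.3e-14 and 2e-12). Ifih1, which encodes MDA5, rose in BN1 by 0.76 ± 0.07 and fell in MA9 by -0.28 ± 0.07 (edgeR adjusted p = 3.1e-11 and 0.0006). Mavs, the adaptor of the RNA sensors, fell by -0.24 ± 0.08 in BN1, -0.18 ± 0.08 in MA9 and -0.69 ± 0.08 in ME (edgeR adjusted p = 0.006, 0.038 and 1.2e-08). In ME, where Eya4 was highest, Nlrx1 rose by 0.47 ± 0.05 and Ifih1 by 0.22 ± 0.07 (edgeR adjusted p = 8e-09 and 0.0053). Mb21d1, Nlrx1 and Ifih1 were thus higher in ME and Ddx58, Tmem173 and Mavs lower than in WT. Nlrx1 also rose in BN1, by 0.68 ± 0.05, and in MA9, by 0.15 ± 0.05 (edgeR adjusted p = 4.3e-12 and 0.015). Mb21d1, Nlrx1 and Ifih1 rose more in BN1, where Eya4 had 1 count, than in ME. A link of these genes to the Eya4 level was not tested.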

How the data were processed

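The values are unnormalised counts per gene as the authors deposited them, covering 35976 symbols and 12 libraries. The submitters' processing notes name HISAT2 with mm10, featureCounts and DESeq2. For their versions, the annotation and the strand setting, nothing is stated there. RNA was, per the labels' protocols, purified on RNeasy columns and made into stranded polyadenylated TruSeq libraries.

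Genes were filtered with filterByExpr (15334 kept), scaled by TMM (factors 0.928 to 1.051) and fitted in 1 robust quasi-likelihood model of 4 groups in edgeR 4.0.16 (R 4.3.3), with a common coefficient of variation of 5.87% (residual degrees of freedom 8, prior 18.61). P-values of the 6 comparisons were adjusted over all tested genes by Benjamini-Hochberg. The script was tested on simulated data. SE is the fold change divided by the root of F. Similarity used a prior count of 2. Exon lengths, overlaps and distances to neighbours came from GENCODE M21, and the printed positions and promoters from RefSeq.

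The genes and lists were chosen with earlier results of these data known. Named were all 7 genes, up to 4 called genes with the largest change per list, direction and comparison, the 3 most similar genes and the nearest genes. Genes such as H2afx, Tmem173, Ddx58, Mb21d1 and Aes were matched by older symbol. Some genes of the lists are not reported here. Alternatives were DESeq2 1.42.0, limma 3.58.1, other scalings and filters, each library left out and a replicate block. No library was removed from the main fit. Beyond the chi-square of replicate pairs no outlier search was made, as groups of 3 are too small.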

Additional observations from a re-analysis of the deposited data

How the results depend on the processing

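Of 343 recomputed values of the 15 fold changes given on the log2 scale (none for Eya2), 339 stayed within 1 SD of the reported value, 4 moved and none counted as reversed. The 4 were Eya3 against WT with no scaling beyond library totals (0.39, 0.06 and 0.12 in BN1, MA9 and ME) and Eya4 in ME against WT without WT replicate 1 (3.62). The 21 folds given as bounds or counting ratios were recomputed only without 1 library each. Of 126 such values, 2 gave no fold (Eya4 in BN1 and MA9 against WT without WT replicate 1), and none of the others turned direction. Bounds are smaller by construction when a library of the group without counts is left out. Without a library of the other group they could rise, as for Eya1 in BN1 against WT (123.5-fold without WT replicate 3, against 112.9-fold). Six5 in BN1 was at least 28.5-fold lower than in WT without BN1 replicate 3. Six4 against ME ran from 89.6-fold to 297.0-fold in BN1 and 774.8-fold to 2568.2-fold in MA9, without ME replicates 2 and 3. Genes called ran from 11387 to 13684 in BN1 against WT, 11508 to 13535 in MA9, 11386 to 13478 in ME and 5523 to 6425 in MA9 against ME, all within 1.5 times of the reported counts, and pathway genes called from 35 to 43, 41 to 49, 37 to 42 and 23 to 29. Libraries of the same number did not deviate together (r from -0.0806 to 0.0625 over 18 pairs, none over 0.1, and 3 libraries correlated best with their own number). A shared origin of small effect would not be seen in this, so whether the numbers pair the libraries is not known. With a replicate block, genes called were 12042, 12162 and 12014 for BN1, MA9 and ME against WT, 10195 for BN1 against MA9, 9743 for BN1 against ME and 5967 for MA9 against ME, and pathway genes called were 38, 45, 38, 37, 33 and 28, the reported numbers. Depth limits the values of Six5 and Eya4 and the bounds set by zeros.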
